A study of Homo sapiens with 9 samples.

Results

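GLO1, LIMA1, FHIT and NABP2 are 4 of the 17637 genes in the deposited count table of a study of the RNA helicase DHX15 in KOPTK1, an established cell line from human T-cell acute lymphoblastic leukaemia. They were selected on their log2 fold change between the knockdown and control libraries described here, with earlier results of these data known, as well-measured genes far lower in the knockdown and outside the pathways usually followed in such cells. The description turns on which of them came back when MYC was added. The 3 groups hold 3 libraries each: shDHX15_MYC, KOPTK1 cells given by lentivirus a short hairpin RNA (shRNA) against DHX15 together with the MYC coding region; shDHX15, cells given that hairpin alone; and shControl, cells given a hairpin whose column names point to GFP. All groups are labelled wild type in genotype, share 1 cell line and 1 lentiviral procedure, and the column names give 1 hairpin number for all knockdown libraries. Loss of DHX15 and any other effect of that hairpin therefore cannot be told apart. The series' design text gives the purpose as testing MYC as a target downstream of DHX15.

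The 4 genes have unrelated roles. GLO1 encodes glyoxalase I, which converts the adduct of glutathione and methylglyoxal, a reactive by-product of glycolysis, to S-lactoylglutathione. HAGH then releases lactate and returns the glutathione. NABP2 encodes a protein that binds single-stranded DNA and, with INTS3 and INIP, forms the SOSS complex that acts at DNA breaks. LIMA1, also called EPLIN, encodes a LIM domain protein that bundles actin filaments and joins them to the cadherin and catenin complex through alpha-catenin. FHIT encodes a histidine triad (HIT) hydrolase of diadenosine polyphosphates, and its gene lies across the common fragile site FRA3B, where deletions are frequent in tumours.

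GLO1 lies on chromosome 6 from 38675925 to 38703141 on the minus strand (GENCODE v29, GRCh38, the assembly also called hg38, which the submitters name). NABP2 lies on chromosome 12 from 56222015 to 56229854 on the plus strand, and LIMA1 on the same chromosome from 50175788 to 50283546 on the minus strand. FHIT spans 1502150 bases of chromosome 3, from 59749310 to 61251459 on the minus strand, of which exons take 0.362%. The exons of the NABP2 gene take 28.3% of its 7840 bases. None of the 100-base windows of their transcripts was found in a gene at another locus (0 of 76 for GLO1, 0 of 131 for NABP2, 0 of 555 for LIMA1 and 0 of 175 for FHIT). No exon of another annotated gene overlapped an exon of any of the 4, on either strand.

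The promoters are shown because 3 of the 4 genes moved together when MYC, a factor that binds the E-box CACGTG, was added. Each runs from 250 bases before to 50 bases after an annotated start (RefSeq, GRCh38.p14), 5′ to 3′ on the gene's strand: chr6:38703096-38703395 (minus), chr12:56224092-56224391 (plus), chr12:50283471-50283770 (minus) and chr3:61251403-61251702 (minus). The capitals mark CCAAT or its reverse, ATTGG.
GLO1: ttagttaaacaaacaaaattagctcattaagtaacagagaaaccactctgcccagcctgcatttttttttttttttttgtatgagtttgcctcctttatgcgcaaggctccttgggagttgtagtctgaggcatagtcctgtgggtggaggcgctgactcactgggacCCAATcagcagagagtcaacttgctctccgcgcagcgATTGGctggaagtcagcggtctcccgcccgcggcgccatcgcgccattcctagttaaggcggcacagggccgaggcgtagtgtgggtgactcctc
NABP2: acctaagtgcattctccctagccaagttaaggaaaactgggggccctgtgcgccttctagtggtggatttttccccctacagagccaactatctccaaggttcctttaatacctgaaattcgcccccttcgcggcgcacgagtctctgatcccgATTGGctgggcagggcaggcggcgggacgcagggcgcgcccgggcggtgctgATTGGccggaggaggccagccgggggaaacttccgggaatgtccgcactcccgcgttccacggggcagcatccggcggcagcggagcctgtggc
LIMA1: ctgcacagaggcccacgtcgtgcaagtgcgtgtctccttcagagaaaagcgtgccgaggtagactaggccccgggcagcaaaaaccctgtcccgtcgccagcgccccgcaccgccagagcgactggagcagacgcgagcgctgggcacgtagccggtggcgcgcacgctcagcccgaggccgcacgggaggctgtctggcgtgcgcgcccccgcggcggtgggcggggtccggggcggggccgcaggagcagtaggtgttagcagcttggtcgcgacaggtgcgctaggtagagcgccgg
FHIT: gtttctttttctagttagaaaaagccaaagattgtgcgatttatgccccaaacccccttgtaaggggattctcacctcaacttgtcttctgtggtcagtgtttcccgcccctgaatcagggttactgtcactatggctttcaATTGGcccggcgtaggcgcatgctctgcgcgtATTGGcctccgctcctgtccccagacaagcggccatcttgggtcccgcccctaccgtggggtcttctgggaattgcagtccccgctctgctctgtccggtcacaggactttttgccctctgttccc

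None of the 4 windows held CACGTG, which 7.26% of all 35116 promoters of this length hold on either strand, nor CACGCG or its reverse CGCGTG, held by 11.4%. The sequence CCAAT, on either strand, stood in 2 places in each of the GLO1, NABP2 and FHIT windows and in none of the LIMA1 window, and 34.6% of all promoters hold it. In GLO1 it began at bases 169 and 206 of the window, in NABP2 at 155 and 207, and in FHIT at 143 and 175, counted from the 5′ end. These 3 motifs do not overlap one another's letters and were chosen after the values and sequences were known. The LIMA1 window was the richest in G and C, at 71.7%, against 63.7% for NABP2, 55.0% for FHIT and 52.7% for GLO1. RefSeq also lists a second promoter for LIMA1 and for FHIT, inside the gene, and neither held CACGTG or CACGCG. The NABP2 window too lies inside the GENCODE span of its gene, downstream of the GENCODE start.

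Total counts per library ran from 42134302 to 59688062, and 15309 of the 17637 genes, the 4 among them, passed the filter on low counts. Levels are counts scaled to a library's total (CPM) after scaling by trimmed means of M values (TMM), and fold changes are on the log2 scale. DHX15 itself averaged 195 ± 2.55 CPM in shDHX15_MYC, 167 ± 13.8 in shDHX15 and 280.3 ± 3.43 in shControl, and MYC 7098 ± 153 CPM in shDHX15_MYC, 86.9 ± 3.78 in shDHX15 and 109 ± 0.603 in shControl (SD, n = 3 each). The MYC level of shDHX15_MYC cells was thus 64.9-fold that of shControl cells, with added and endogenous transcripts counted as 1 gene. DHX15 was higher in shDHX15_MYC than in shDHX15, by 0.23 on the log2 scale (edgeR adjusted p = 1.24e-04). With libraries scaled by total counts that difference was 0.43. Added MYC and this difference in DHX15 cannot be told apart in that comparison. All 8 T-cell markers checked exceeded 1 CPM in every library; their summed level was 1584 to 1607 CPM in shDHX15_MYC, 2431 to 2481 in shDHX15 and 2849 to 2959 in shControl. Of the B-cell markers, CD79A ranged from 36.4 to 103 CPM over the 9 libraries and PAX5 stayed under 0.497 CPM. The 5 myeloid markers summed to 7.16 to 8.76 CPM in shDHX15_MYC, 0.623 to 0.869 in shDHX15, where CSF1R was at 0, and 0.708 to 1.31 in shControl. The 2 erythroid markers in the table summed to at most 0.127 CPM in shDHX15_MYC, where HBB was at 0, 0.0424 in shDHX15 and 0.245 in shControl. The 6 adherent-cell markers summed to 36.5 to 37.01 CPM in shDHX15_MYC, 14.1 to 14.9 in shDHX15 and 19.1 to 20.4 in shControl, where KRT19 and COL1A2 were at 0. The part of these shifts in the results was not tested. The mitochondrial share of counts was 6.59% to 6.66% in shDHX15_MYC, 3.67% to 3.87% in shDHX15 and 3.87% to 3.99% in shControl. Within shDHX15, library 1 differed most: its chi-square divided by the degrees of freedom was 18.03 and 17.1 when set against the remaining libraries, and 4.45 between those. In bulk RNA, fewer cells with a message and less of it per cell cannot be told apart, and the labels do not say whether replicates were separate cultures, so the p-values cover the spread among these libraries alone, which may be technical.

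The knockdown values chose the 4 genes and are given as a description. GLO1 had 69.4, 64.6 and 63.4 CPM in the shDHX15 libraries, against 168, 172 and 173 in the shControl libraries. NABP2 had 29.9, 28.1 and 29.9 CPM in shDHX15, against 63.3, 58.1 and 64.8 in shControl. All libraries of shDHX15 lay far below every shControl library for both genes, with a spread of 4.83% and 3.50% of the mean (coefficient of variation) in shDHX15. LIMA1 had 17.3, 15.6 and 15.1 CPM in shDHX15, against 39.5, 38.8 and 39.2 in shControl. FHIT had 12.9, 12.4 and 10.6 CPM in shDHX15, against 34.9, 33.6 and 32.8 in shControl. These groups were apart as well, and FHIT varied most within shDHX15, by 10.01% of its mean.

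As a share of the shControl mean, the shDHX15 level was 38.5% ± 1.86 for GLO1, 47.2% ± 1.65 for NABP2, 40.8% ± 2.95 for LIMA1 and 35.5% ± 3.55 for FHIT (SD, n = 3). The log2 fold changes of shDHX15 against shControl were -1.38 (SE 0.0384), -1.08 (SE 0.0493), -1.29 (SE 0.0599) and -1.49 (SE 0.0833) in that order. DHX15 itself, the target of the hairpin, was at -0.75 (SE 0.0441). Among the 10151 genes whose log2 CPM averaged 3 or more, called well measured here, FHIT, GLO1, LIMA1 and NABP2 ranked 4, 5, 10 and 14 from the lowest. The rule names no threshold. The genes directly above and below NABP2, the least lowered of the 4, were at -1.19 and -1.08. In this contrast 45.0% of all genes tested were called (adjusted p under 0.05), 22.0% higher and 23.0% lower, while 24.4% had shDHX15 libraries all above and 26.6% all below the shControl libraries. Of well-measured genes, 28.3% were called higher and 27.7% lower. The 4 genes are among those lower by their selection, and nothing is read from it. Without replicate 1 of shDHX15 the log2 fold changes were -1.42, -1.10, -1.35 and -1.55.

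**Figure D1:**
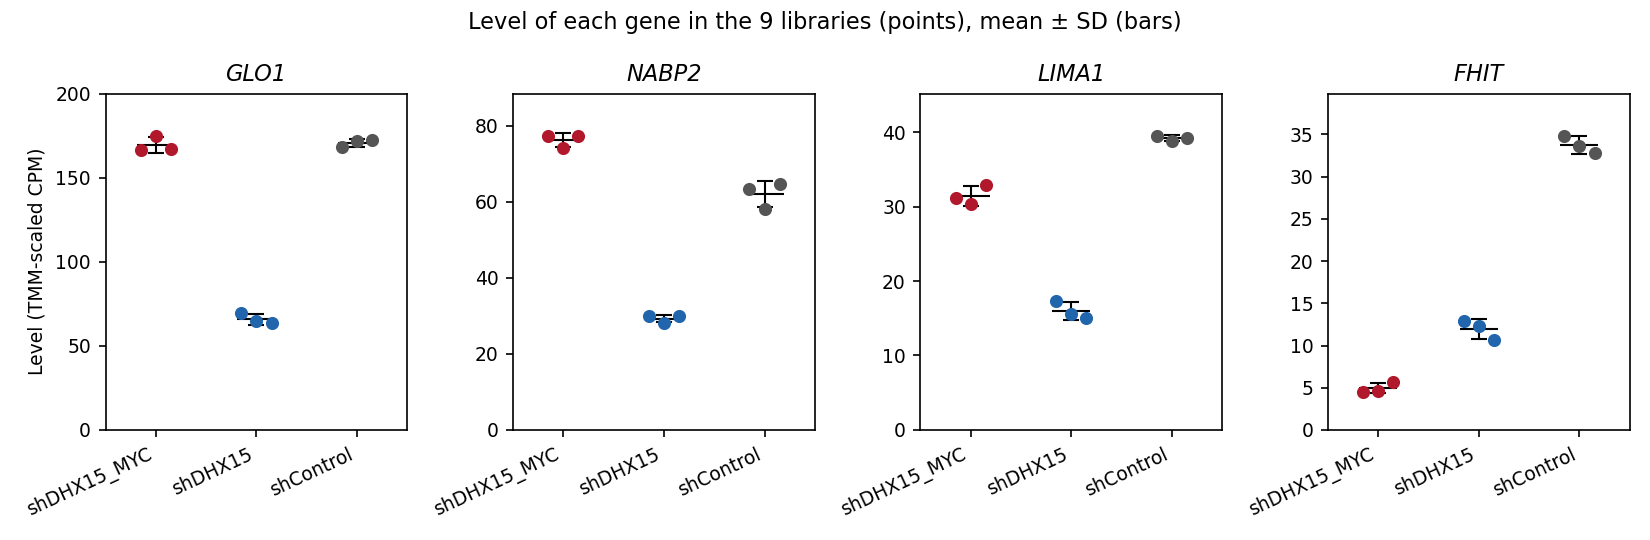
Level of GLO1, NABP2, LIMA1 and FHIT in TMM-scaled CPM (vertical axes, each from 0) in the 3 libraries of shDHX15_MYC, shDHX15 and shControl; points are libraries, and bars the mean ± SD. GLO1 averaged 169.8 ± 4.72 CPM in shDHX15_MYC, 65.8 ± 3.18 in shDHX15 and 171 ± 2.41 in shControl, and FHIT 4.95 ± 0.63 CPM in shDHX15_MYC, 11.97 ± 1.20 in shDHX15 and 33.8 ± 1.03 in shControl.

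With MYC added, GLO1, NABP2 and LIMA1 rose over shDHX15 and FHIT fell. The genes were chosen for low values in these shDHX15 libraries, so the p-values given are a description. GLO1 reached 167, 175 and 167 CPM in the shDHX15_MYC libraries, against the 63.4 to 69.4 CPM of shDHX15. The change was 2.58-fold (log2 fold change 1.37 with SE 0.0384; edgeR adjusted p = 1.12e-15). The libraries lay just outside the shControl range of 168 to 173 CPM, 2 below it and 1 above it. NABP2 reached 77.5, 74.3 and 77.4 CPM in shDHX15_MYC, a rise of 2.61-fold over the 28.1 to 29.9 CPM of shDHX15 (log2 fold change 1.38, SE 0.0489, edgeR adjusted p = 2.55e-14). Every shDHX15_MYC library held more NABP2 than any shControl library. LIMA1 reached 31.1, 30.3 and 32.8 CPM in shDHX15_MYC, 1.97-fold above shDHX15 (log2 fold change 0.98, SE 0.0602, edgeR adjusted p = 5.90e-11). These LIMA1 libraries lay between the groups, above all of shDHX15 and below all of shControl.

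FHIT had 4.54, 4.64 and 5.68 CPM in shDHX15_MYC, from 215, 224 and 265 counts, against 12.9, 12.4 and 10.6 CPM in shDHX15. It fell by 1.28 on the log2 scale (SE 0.0964, edgeR adjusted p = 1.03e-09), so that a gene already low in the knockdown was lowered a further 2.42-fold. All 3 shDHX15_MYC libraries were below every shDHX15 library. In this comparison 84.7% of all genes were called, 42.1% higher and 42.6% lower, and 42.4% and 42.6% had shDHX15_MYC libraries all above or all below shDHX15, so a call in either direction is common and the size of the change carries the contrast between the genes. Of well-measured genes, 33.2% were called higher and 54.4% lower. NABP2, GLO1 and LIMA1 ranked 313, 321 and 712 from the highest of 10151 well-measured genes, and FHIT 994 from the lowest. This comparison shares the shDHX15 libraries with the contrast that chose the genes. Genes chosen for low values there are favoured to rise, so nothing is read from the p-values and ranks.

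Set against shControl, the genes fell into 4 different end points. NABP2 ended above shControl, at 123% ± 2.94 of its mean (log2 fold change 0.30 with SE 0.0469; edgeR adjusted p = 1.34e-05). GLO1 ended at 99.3% ± 2.76, with overlapping groups and a log2 fold change of -0.01 (SE 0.0369, edgeR adjusted p = 0.793). LIMA1 ended at 80.2% ± 3.28, below shControl in all 3 libraries (log2 fold change -0.32, SE 0.0572, edgeR adjusted p = 6.23e-05). FHIT ended at 14.7% ± 1.87, 6.82-fold below shControl (log2 fold change -2.77, SE 0.0926, edgeR adjusted p = 1.21e-14), the 79th lowest of the well-measured genes. In this comparison 84.5% of all genes were called, 42.0% higher and 42.5% lower, and 43.5% and 43.6% had shDHX15_MYC libraries all above or all below shControl. Of well-measured genes, 33.7% were called higher and 54.2% lower. It shares the shControl libraries with the contrast that chose the genes, so its p-values for the 4 genes are a description as well.

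Those end points, though not the split between FHIT and the others, depend on the scaling. Scaling by total counts in place of TMM moved the median of all genes by 0.20 on the log2 scale in shDHX15_MYC against shDHX15 and by 0.27 in shDHX15_MYC against shControl. Under it GLO1 was called higher than shControl (log2 fold change 0.25, edgeR adjusted p = 5.85e-06) and LIMA1 was no longer called lower (-0.05, edgeR adjusted p = 0.391). NABP2 was then at 148% and FHIT at 17.6% of the shControl mean. Relative to shDHX15 the log2 fold changes under total counts were 1.57 for GLO1, 1.58 for NABP2, 1.17 for LIMA1 and -1.08 for FHIT. The same scaling turned 3362 higher and 3524 lower calls of shDHX15 against shControl into 4576 and 2568, and 6437 and 6502 of shDHX15_MYC against shControl into 8128 and 4893. In shDHX15_MYC against shDHX15 it turned 6438 and 6528 into 7679 and 5348. Percentages of all genes set beside the gene lists below are from the TMM fit.

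**Figure D2:**
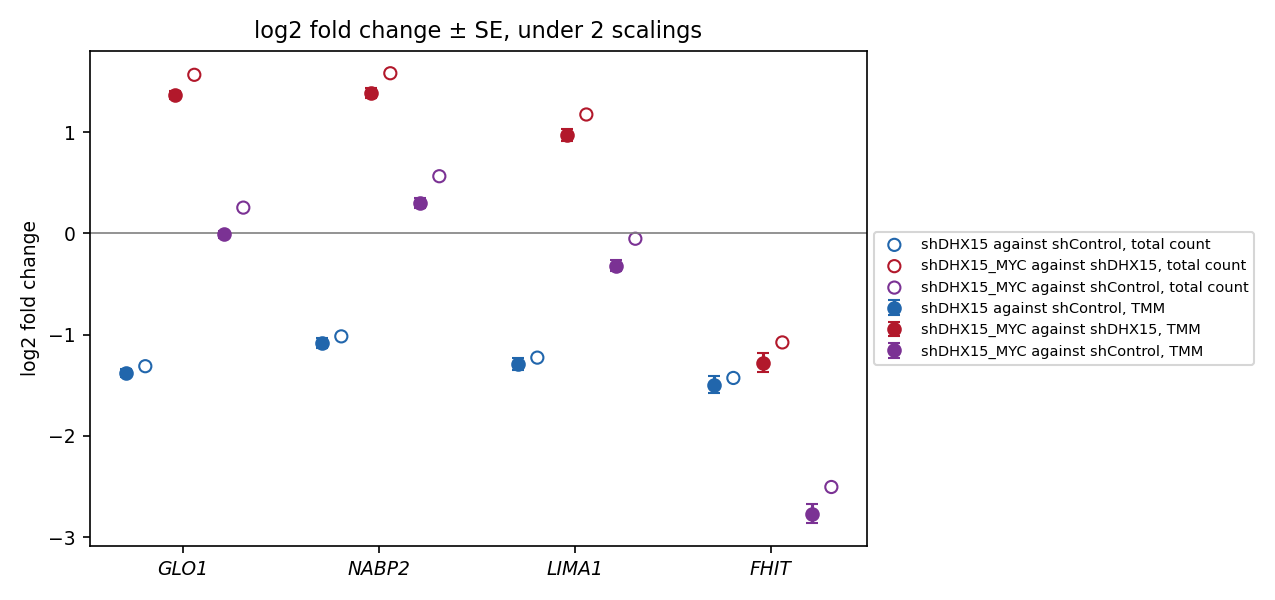
log2 fold change (vertical axis) of GLO1, NABP2, LIMA1 and FHIT in the 3 comparisons; filled points with bars are TMM-scaled estimates ± SE, open points the same under total-count scaling. In shDHX15_MYC against shDHX15, GLO1, NABP2 and LIMA1 are above 0 and FHIT below 0 under both, while in shDHX15_MYC against shControl GLO1 is at -0.01 under TMM and 0.25 under total counts.

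Ratios between the genes within a library do not depend on scaling. The log2 ratio of GLO1 to FHIT counts was 5.11 ± 0.196 in shDHX15_MYC, 2.46 ± 0.101 in shDHX15 and 2.34 ± 0.0641 in shControl (SD, n = 3 each). Both genes were chosen for a deep drop in shDHX15, so the likeness of its ratio to that of shControl follows from the choice. All shDHX15_MYC libraries, at 4.88 to 5.24, lay above the shDHX15 libraries, at 2.39 to 2.58. GLO1 to NABP2 was 1.15 ± 0.0745 in shDHX15_MYC, 1.17 ± 0.0713 in shDHX15 and 1.46 ± 0.0877 in shControl, so these genes rose together with MYC. GLO1 to LIMA1 was 2.43 ± 0.0907 in shDHX15_MYC, 2.04 ± 0.0338 in shDHX15 and 2.13 ± 0.0324 in shControl, and every shDHX15_MYC library exceeded every shDHX15 library. On the log2 scale GLO1 regained 99.2% of its drop (97.3% to 103% in single libraries), NABP2 128% (124% to 130%) and LIMA1 75.4% (71.5% to 80.4%). FHIT instead moved a further -85.0% of its drop (-92.8% to -71.4%), away from shControl.

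Per kilobase of annotated exon, the level in shDHX15_MYC was highest for GLO1, at 72.2 ± 2.01 CPM per kb, followed by NABP2 at 34.4 ± 0.823, LIMA1 at 4.97 ± 0.203 and FHIT at 0.91 ± 0.116. In shDHX15 the order was GLO1 (27.97 ± 1.35), NABP2 (13.2 ± 0.462), LIMA1 (2.53 ± 0.183) and FHIT (2.201 ± 0.22). In shControl it was GLO1 (72.7 ± 1.03), NABP2 (27.98 ± 1.58), FHIT (6.21 ± 0.19) and LIMA1 (6.20 ± 0.0621). FHIT and LIMA1 were within their spread of each other in shControl and close in shDHX15, and stood far apart per length in shDHX15_MYC, where LIMA1 had partly returned and FHIT had not.

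Most of the genes lowered furthest were called higher once MYC was added, by amounts that differed widely. Of 10151 well-measured genes, 18 were called lower and at least 2-fold lower in shDHX15 than in shControl, the 4 genes among them. Of these 18, 15 were called higher in shDHX15_MYC than in shDHX15, 2 were called lower and 1 was not called, where 33.2% and 54.4% of all well-measured genes were called higher and lower. All 18 were selected for low values in the same shDHX15 libraries, so the share that went up is a description. Relative to shControl the 18 ended anywhere between -2.77 (FHIT) and 4.94 (PTGIS, the prostacyclin synthase gene), so a call of higher is not a return to the shControl level. The 2 that fell further were FHIT and LCT, the gene of intestinal lactase, at -0.84 in shDHX15_MYC against shDHX15. The gene not called was the intermediate filament gene VIM, at 0.04; PTGIS, LCT and VIM are named here after their values were seen.

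**Figure D3:**
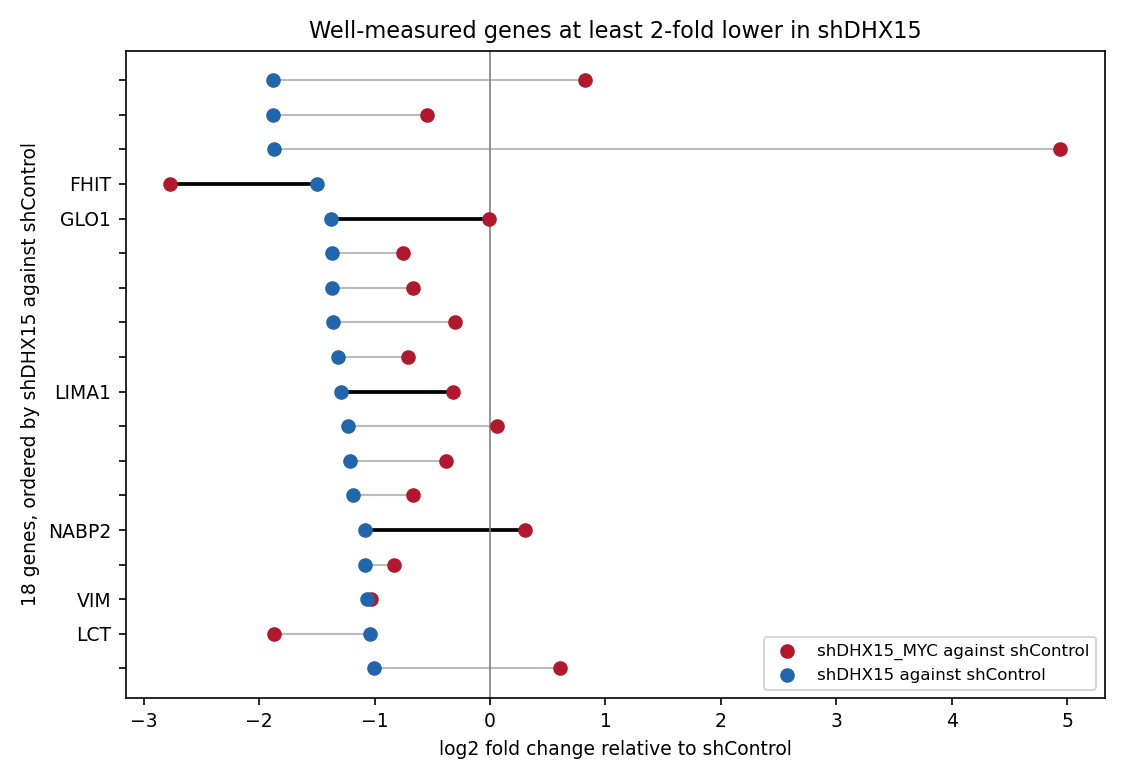
log2 fold change relative to shControl (horizontal axis) of the 18 well-measured genes called and at least 2-fold lower in shDHX15, 1 row each, in shDHX15_MYC (red) and shDHX15 (blue); black lines join the values of the 4 genes described. FHIT runs from -1.49 in shDHX15 leftwards to -2.77 in shDHX15_MYC, while the 15 genes called higher with MYC move right and GLO1 ends at -0.01.

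The genes most like each of the 4 were found by the root-mean-square difference of log2 CPM over the 9 libraries, each gene set to its shControl mean, among 9628 other well-measured genes, with clone names and uncharacterised loci left out. DUSP6, a phosphatase that inactivates ERK, was closest to GLO1, with a difference of 0.105, and averaged 250.03 ± 2.76 CPM in shDHX15_MYC, 102 ± 2.24 in shDHX15 and 240.1 ± 2.60 in shControl (SD, n = 3 each). The lysosomal sulfatase gene ARSB (0.186) and LIMA1 itself (0.19) followed. LIMA1 was closest to GLTP, a glycolipid transfer protein gene (0.111, at 28.2 ± 0.88 CPM in shDHX15_MYC, 15.8 ± 1.13 in shDHX15 and 36.7 ± 1.58 in shControl), then to ARSB (0.116) and GLO1. NABP2 was closest to CMPK2, a mitochondrial nucleotide kinase gene (0.158), FAM212B (0.163) and DUSP6 (0.174). The genes closest to FHIT lay further off: ZNF423, a zinc finger transcription factor gene, at 0.459, CHI3L2, a chitinase-like gene, and CD1C, a lipid-presenting CD1 gene, both at 0.533. ZNF423 averaged 6.22 ± 0.618 CPM in shDHX15_MYC, 28.3 ± 2.55 in shDHX15 and 48.1 ± 2.59 in shControl, and CD1C 5.16 ± 0.235 CPM in shDHX15_MYC, 11.95 ± 0.941 in shDHX15 and 22.3 ± 1.47 in shControl. Both, like FHIT, were lowest in shDHX15_MYC and highest in shControl. They were picked for likeness to FHIT over these libraries, so the shared order follows from the search.

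Other genes at the same loci moved in both directions in the knockdown. Of 54 tested genes starting within 500 kb of the start of a member, 22 were called lower and 9 higher in shDHX15 against shControl, beside 23.0% lower and 22.0% higher of all genes. That is 40.7% and 16.7%, but 38 of the 54 surround NABP2 in a gene-dense stretch, where 18 were lower and 7 higher. The 54 ran from -0.59 to 0.52. Without replicate 1 of shControl, 5 of the 54 were called higher.

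The gene RNF41, a ubiquitin ligase gene, starts 0.08 kb from the GENCODE start of NABP2 and is read in the opposite direction. That start lies upstream of the NABP2 promoter window printed above. RNF41 was at -0.22 in shDHX15 against shControl (edgeR adjusted p = 4.93e-04) and at -0.29 in shDHX15_MYC against shDHX15 (edgeR adjusted p = 8.37e-06). With libraries scaled by total counts, RNF41 was at -0.09 in shDHX15_MYC against shDHX15 and was not called (edgeR adjusted p = 0.0621), where NABP2 was at 1.58. On the other side SLC39A5, a zinc transporter gene, was at 0.18 and was not called (edgeR adjusted p = 0.667). Further out, ANKRD52 rose in the knockdown (0.52, edgeR adjusted p = 5.03e-09), and the ribosomal protein genes RPL41 and RPS26 fell (-0.59 and -0.57, edgeR adjusted p = 1.29e-06 and 1.46e-06).

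Near GLO1, BTBD9 starts 62.99 kb downstream and fell by 0.40 in the knockdown (edgeR adjusted p = 8.65e-04), but was at 0.06 in shDHX15_MYC against shDHX15 (edgeR adjusted p = 0.491), where GLO1 was at 1.37. SAYSD1, at -412 kb (upstream), was at -0.12 in the knockdown (edgeR adjusted p = 0.209) and fell by 0.99 with MYC (edgeR adjusted p = 2.44e-09). Of 13 genes near LIMA1, 3 fell and 2 rose in the knockdown: COX14, BCDIN3D and RACGAP1 fell by 0.44, 0.38 and 0.12, and LARP4 and SMARCD1 rose by 0.20 and 0.09. The nearest on either side, LARP4 and CERS5, were at 0.93 and 0.12 with MYC against shDHX15 (edgeR adjusted p = 3.90e-13 and 0.0206). The tyrosine phosphatase gene PTPRG, at -310.1 kb from FHIT (upstream), was the lone tested neighbour, at 0.25 in the knockdown (edgeR adjusted p = 0.28) and higher with MYC, by 1.56 on the log2 scale (edgeR adjusted p = 5.74e-08), where FHIT fell.

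**Figure D4:**
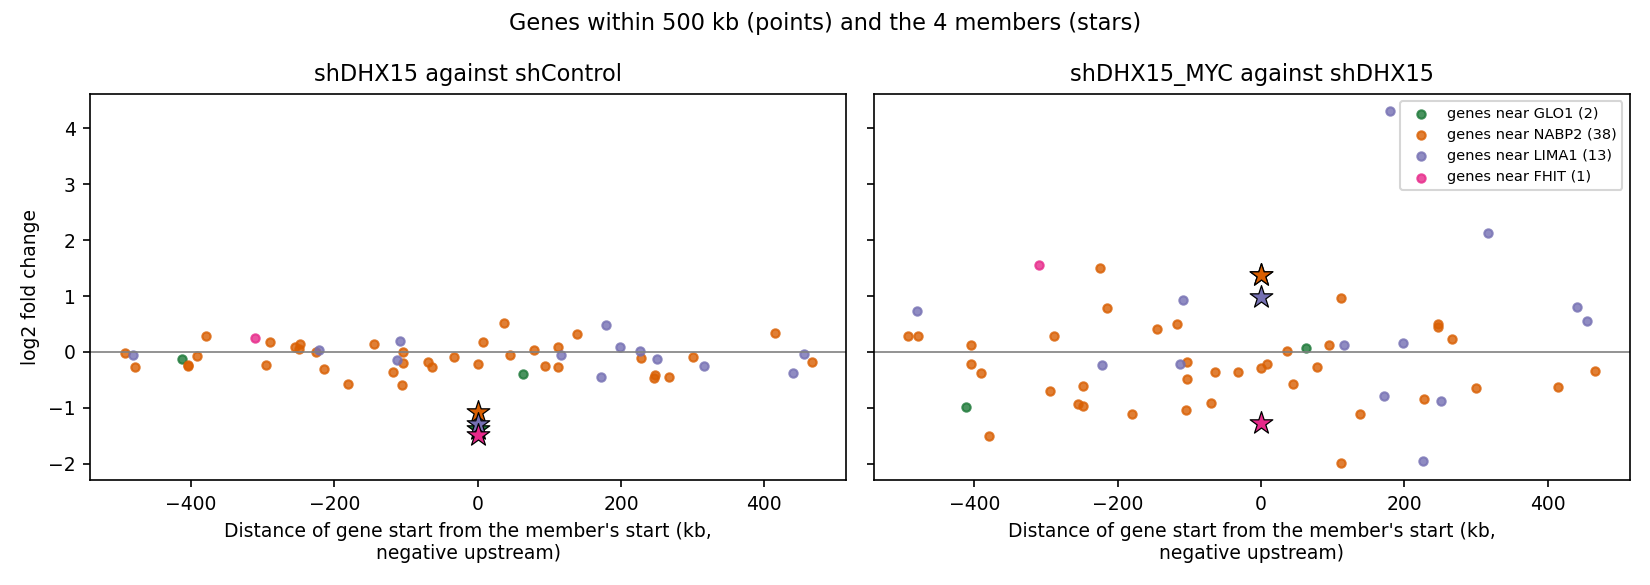
log2 fold change (vertical axis) of the 54 tested genes that start within 500 kb of a member, by distance of their start from its start in kb (horizontal axis, negative upstream), in shDHX15 against shControl (left) and shDHX15_MYC against shDHX15 (right); stars are the 4 genes. The stars in the left panel were chosen for low values there; the points run from -0.59 to 0.52.

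HAGH, the next enzyme of methylglyoxal removal after GLO1, had 34.7 ± 1.29 CPM in shDHX15 and 34.1 ± 1.84 in shControl (log2 fold change 0.02, SE 0.057, edgeR adjusted p = 0.756). It fell to 18.8 ± 0.823 CPM in shDHX15_MYC, a log2 fold change of -0.88 against shDHX15 (edgeR adjusted p = 1.87e-10), where GLO1 rose. PARK7, a redox-protective protein for which glyoxalase activity has been described, fell by 0.32 in the knockdown (edgeR adjusted p = 1.67e-05) and rose by 0.19 with MYC against shDHX15 (edgeR adjusted p = 5.92e-04). Of the 14 glyoxalase and dicarbonyl detoxification genes, 4 were called higher and 4 lower in shDHX15 against shControl. Of all genes, 22.0% were called higher and 23.0% lower. The median was 0.03 against -0.005 for all genes. In shDHX15_MYC against shDHX15, 4 were higher and 9 lower, beside 42.1% and 42.6% of all genes and 33.2% and 54.4% of well-measured genes. The median was -0.38, against 0.01 for all genes and -0.21 for well-measured genes. In shDHX15_MYC against shControl 3 were higher and 10 lower, beside 42.0% and 42.5% of all genes and 33.7% and 54.2% of well-measured genes. Total counts gave 4 higher and 8 lower, beside 8128 and 4893 of all 15309 genes. The aldehyde dehydrogenase gene ALDH3A2 rose by 2.45 with MYC against shDHX15 (edgeR adjusted p = 1.93e-11) and the aldo-keto reductase gene AKR7A2 fell by 1.74 (edgeR adjusted p = 1.01e-11).

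Of 29 genes that supply or use glutathione, the cofactor of GLO1, 5 were called higher and 11 lower in shDHX15 against shControl (median -0.10). That stands beside 22.0% and 23.0% of all genes and 28.3% and 27.7% of well-measured genes. Total counts gave 6 higher and 8 lower, beside 4576 and 2568 of all 15309 genes. GPX1, a glutathione peroxidase, fell to 59.7 ± 1.23 CPM in shDHX15, against 83.7 ± 3.16 in shControl (log2 fold change -0.49, edgeR adjusted p = 4.95e-08), and the transferase genes GSTP1 and GSTO1 fell by 0.39 and 0.47. The reductase gene GSR rose by 0.23 (edgeR adjusted p = 3.39e-04) and GCLM, the modifier subunit of the rate-limiting ligase, by 0.21 (edgeR adjusted p = 0.0197), while its catalytic subunit GCLC was at 0.04 (edgeR adjusted p = 0.485). In shDHX15_MYC against shDHX15, 10 were higher and 13 lower, beside 42.1% and 42.6% of all genes and 33.2% and 54.4% of well-measured genes. Total counts gave 15 higher and 12 lower, beside 7679 and 5348 of all 15309 genes. The median of -0.05 turned to 0.15 under total counts, where that of all genes went from 0.01 to 0.20. Against shControl 11 were higher and 16 lower, beside 42.0% and 42.5% of all genes and 33.7% and 54.2% of well-measured genes. SLC7A11, the cystine transporter, rose to 25.2 ± 1.88 CPM in shDHX15_MYC, against 4.38 ± 0.271 in shDHX15 (log2 fold change 2.52, edgeR adjusted p = 3.18e-14), and the lipid peroxidase gene GPX4 fell by 0.99 (edgeR adjusted p = 5.96e-15).

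Of the SOSS partners of NABP2, the scaffold INTS3 was at 87.4 ± 2.75 CPM in shDHX15 and 79.5 ± 2.87 in shControl (log2 fold change 0.14, SE 0.0387, edgeR adjusted p = 0.00799). INIP, the small subunit, fell to 30.2 ± 2.49 CPM in shDHX15, against 36.4 ± 0.484 in shControl (-0.27, edgeR adjusted p = 9.85e-04), and rose to 46.5 ± 1.12 CPM in shDHX15_MYC (0.62 against shDHX15, edgeR adjusted p = 1.12e-08). NABP1, the paralogue that can take the place of NABP2, was at -0.03 in the knockdown (edgeR adjusted p = 0.806) and rose by 0.57 with MYC (edgeR adjusted p = 1.80e-06). INIP and NABP2 thus shared a fall and a rise, of unequal size. So did the Integrator gene VWA9, at -0.28 and 1.16 (edgeR adjusted p = 5.81e-05 and 4.38e-14). Of 17 SOSS and Integrator genes, 4 were called higher and 4 lower in shDHX15 against shControl, beside 22.0% and 23.0% of all genes. Under total counts 6 were higher and 3 lower, beside 4576 and 2568 of all 15309 genes. The median of -0.01 turned to 0.06, where that of all genes went from -0.005 to 0.06. In shDHX15_MYC against shDHX15, 9 were higher and 6 lower, beside 42.1% and 42.6% of all genes. Total counts gave 11 higher and 4 lower, beside 7679 and 5348 of all 15309 genes. The median was 0.17. Against shControl 10 were higher and 7 lower, beside 42.0% and 42.5%. Total counts gave 10 higher and 2 lower, beside 8128 and 4893 of all 15309 genes.

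Most genes listed under single-stranded DNA binding and end resection, among them BRCA1 and BRCA2, were higher in the knockdown. The RPA subunits, which bind single-stranded DNA as NABP2 does, were not called higher. Of 28, 17 were called higher and 3 lower in shDHX15 against shControl (median 0.18), beside 22.0% and 23.0% of all genes. BRCA2 had 46.9 ± 1.06 CPM in shDHX15, against 33.1 ± 1.14 in shControl (log2 fold change 0.51, edgeR adjusted p = 2.10e-07), and BRCA1 121 ± 5.91 CPM in shDHX15 against 97.03 ± 1.21 in shControl (0.32, edgeR adjusted p = 3.55e-06). RPA2 and RPA3, subunits of the main single-stranded DNA binding complex, fell by 0.29 and 0.25 (edgeR adjusted p = 2.98e-06 and 4.14e-04), and RPA1 was at 0.03 (edgeR adjusted p = 0.362). With MYC against shDHX15, 12 were higher and 14 lower, beside 42.1% and 42.6% of all genes. Total counts gave 14 higher and 9 lower, beside 7679 and 5348 of all 15309 genes. The median of -0.10 turned to 0.10 under total counts, where that of all genes went from 0.01 to 0.20. Against shControl 12 were higher and 10 lower, beside 42.0% and 42.5%. Total counts gave 18 higher and 8 lower, beside 8128 and 4893 of all 15309 genes. RPA2 rose by 0.43 in shDHX15_MYC against shDHX15 (edgeR adjusted p = 1.76e-09).

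Among actin filament and LIM domain genes, the class of LIMA1, 11 of 57 were called higher and 25 lower in shDHX15 against shControl. Of all genes, 22.0% were called higher and 23.0% lower. Of well-measured genes, 28.3% were called higher and 27.7% lower. The median of the list was -0.08. Total counts gave 15 higher and 18 lower, beside 4576 and 2568 of all 15309 genes. RHOA, the GTPase that drives actin fibres, fell to 377 ± 2.82 CPM in shDHX15, against 626 ± 1.39 in shControl (log2 fold change -0.73, edgeR adjusted p = 3.71e-12). CAPG, an actin-capping gene, fell by 0.40, while the tropomyosin gene TPM2 and the LIM gene LPP rose by 0.67 and 0.53 (edgeR adjusted p = 2.16e-08, 4.50e-08 and 1.09e-07). CTNNA1, which encodes the alpha-catenin that LIMA1 binds, was called slightly higher in the knockdown (0.09, edgeR adjusted p = 0.0462) and fell to 81.2 ± 0.497 CPM in shDHX15_MYC, against 148 ± 1.63 in shDHX15 (-0.87, edgeR adjusted p = 2.27e-13). CTNNB1 fell by 0.19 and rose by 0.41 in these comparisons, and LUZP1, an actin-binding partner of LIMA1, was at -0.04 and 0.06 (edgeR adjusted p = 0.462 and 0.158). In shDHX15_MYC against shDHX15, 19 were higher and 27 lower, beside 42.1% and 42.6% of all genes and 33.2% and 54.4% of well-measured genes. Total counts gave 33 higher and 21 lower, beside 7679 and 5348 of all 15309 genes. Against shControl 19 were higher and 31 lower, beside 42.0% and 42.5% of all genes and 33.7% and 54.2% of well-measured genes. Total counts gave 29 higher and 20 lower, beside 8128 and 4893 of all 15309 genes. The medians of -0.04 and -0.15 turned to 0.16 and 0.11 under total counts. Those of all genes went from 0.01 and 0.02 to 0.20 and 0.28, above the list under both scalings.

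Of 19 HIT family and dinucleotide hydrolysis genes, 3 were called higher and 7 lower in shDHX15 against shControl. Of all genes, 22.0% were called higher and 23.0% lower. The median of the list was -0.19. Total counts gave 5 higher and 5 lower, beside 4576 and 2568 of all 15309 genes. HINT1, an abundant HIT hydrolase, had 240 ± 21.2 CPM in shDHX15, against 333 ± 5.73 in shControl (log2 fold change -0.48, edgeR adjusted p = 3.47e-07), and fell again to 126 ± 2.45 CPM in shDHX15_MYC (-0.93 against shDHX15, edgeR adjusted p = 3.81e-12). NUDT2, which splits diadenosine tetraphosphate, was at -0.19 in the knockdown (edgeR adjusted p = 0.0496) and fell to 8.73 ± 1.04 CPM in shDHX15_MYC, against 21.3 ± 1.48 in shDHX15 (-1.29, edgeR adjusted p = 1.01e-10). HINT1 kept its fall in both steps under total counts (-0.41 and -0.73), while the knockdown value of NUDT2 was then -0.13 and not called (edgeR adjusted p = 0.196). HINT3 rose in both (0.34 and 0.19, edgeR adjusted p = 0.00356 and 0.0401), and APTX, a DNA repair hydrolase of the family, was at 0.08 in the knockdown and rose by 0.39 with MYC (edgeR adjusted p = 0.21 and 7.34e-07). HINT2 was at 0.05 (edgeR adjusted p = 0.573) and DCPS, the scavenger decapping enzyme, at -0.14 (edgeR adjusted p = 0.0709) in the knockdown, and with MYC they were lower, at -1.02 and -0.53 against shDHX15 (edgeR adjusted p = 1.31e-10 and 4.37e-07). In shDHX15_MYC against shDHX15, 9 of the 19 were higher and 9 lower, shares near the 42.1% and 42.6% of all genes. The median was -0.07, and 0.13 under total counts, where the medians of all genes were 0.01 and 0.20. Against shControl 8 were higher and 9 lower, beside 42.0% and 42.5% of all genes.

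The median of 19 tested large genes of common fragile sites was 0.04 in shDHX15 against shControl. With 22.0% and 23.0% of all genes called higher and lower, 1 of the 19 was called higher and 2 lower (4 and 2 under total counts). LPP was the higher, and those lower were CNTNAP2 (-1.98, edgeR adjusted p = 6.66e-04), a cell adhesion gene at only 0.13 ± 0.0438 CPM in shDHX15 and 0.521 ± 0.0327 in shControl, and DPYD, a pyrimidine breakdown gene (-0.19, edgeR adjusted p = 0.00278). WWOX, the gene of the fragile site FRA16D, had 19.02 ± 1.05 CPM in shDHX15 and 17.5 ± 0.463 in shControl (log2 fold change 0.12, edgeR adjusted p = 0.201). It fell to 5.76 ± 0.542 CPM in shDHX15_MYC (-1.72 against shDHX15, edgeR adjusted p = 1.64e-12), a larger drop than that of FHIT in the same comparison. LPP, DPYD, EXOC4 and SMYD3 fell by 2.14, 1.73, 1.88 and 1.40 (edgeR adjusted p from 1.05e-16 to 4.65e-12). PTPRG, the neighbour of FHIT, is also on this list and rose by 1.56 (edgeR adjusted p = 5.74e-08). With MYC against shDHX15, 10 of the 19 were higher and 9 lower, near the 42.1% and 42.6% of all genes. The median was 0.33 against 0.01 for all genes. Against shControl 8 were higher and 8 lower, beside 42.0% and 42.5% of all genes.

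**Figure D5:**
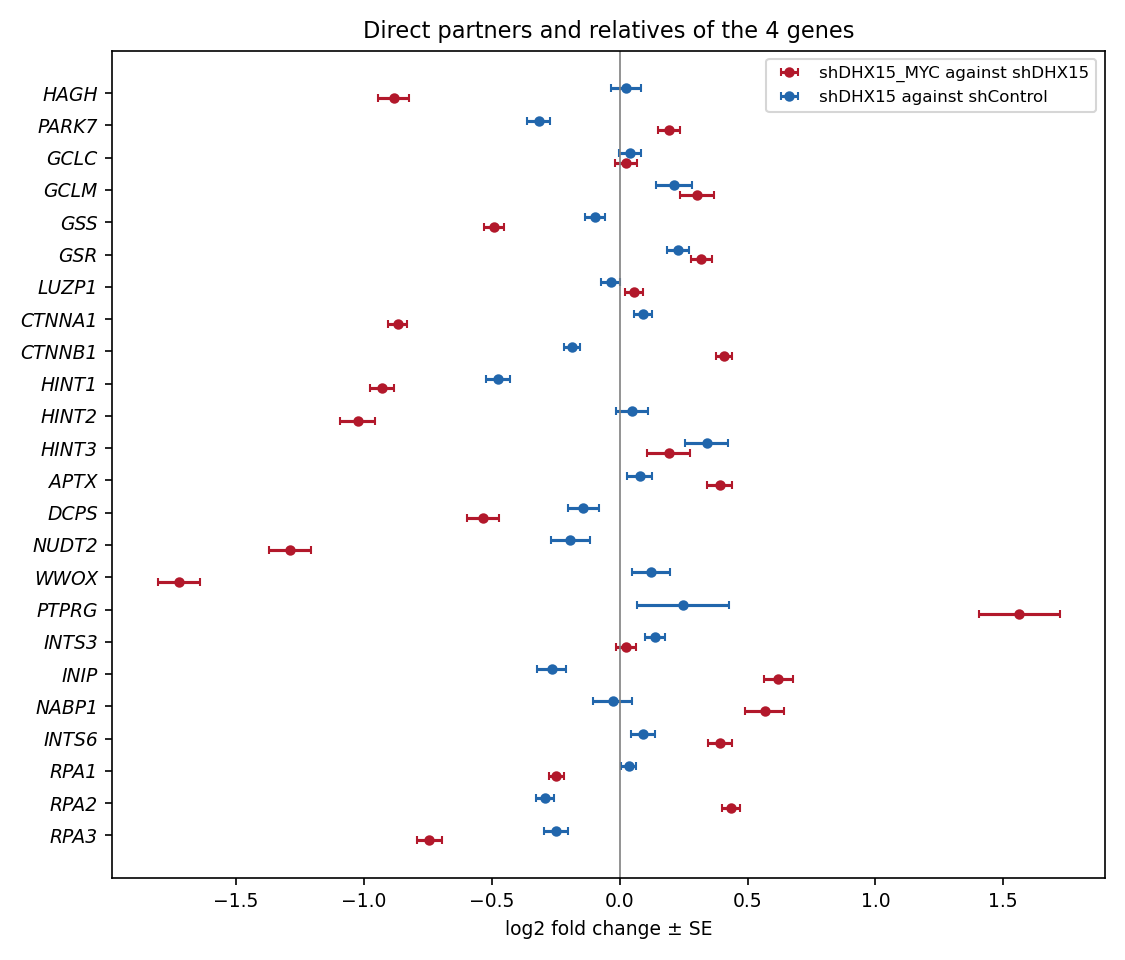
log2 fold change ± SE (horizontal axis) of 24 partners and relatives of the 4 genes, in shDHX15_MYC against shDHX15 (red) and shDHX15 against shControl (blue). The blue points lie between -0.48 (HINT1) and 0.34 (HINT3), and HAGH, WWOX and NUDT2 lie at -0.88, -1.72 and -1.29 in red.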

How the data were processed

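Poly(A) RNA of 9 KOPTK1 libraries was sequenced as paired-end reads, per the labels' protocols. HISAT2 2.2.1, FastQC 0.11.9, DESeq2 1.32.0 and hg38 stand in the submitters' processing notes; which counting program, strand setting and annotation were used is not given in the sources used here. Read counts per gene were deposited by the authors as whole numbers with no scaling. Columns were joined to samples by name: GFP-hairpin columns to shControl, hairpin columns with and without MYC to shDHX15_MYC and shDHX15, since the labels name no target other than DHX15.

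Genes kept by filterByExpr (15309 of 17637; 26 symbols read as dates and 2 stood in 2 places) were fitted with edgeR 4.0.16 in R 4.3.3: TMM scaling, 1 mean per group over 9 libraries, quasi-likelihood tests, 2-sided, with Benjamini-Hochberg adjustment over 15309 genes, called under 0.05. No test is read for the 4 genes from the contrast that chose them. Their p-values in the remaining contrasts, which share libraries with it, are a description. Log2 CPM for profiles used a prior count of 0.5. The fit was first tested on simulated data in which 200 genes changed.

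The 4 genes, the 7 companion lists (182 tested genes) and the naming rule were chosen with earlier results of these data known. The rule names the direct partners, up to 4 further genes per list and comparison with the smallest adjusted p, the 3 nearest profiles, the nearest tested gene on each side of a member, and genes within 500 kb called in the knockdown. Other markers and scalings are stated where used. Total counts of 42134302 to 59688062 make 3 counts, the limit a count of 0 allows, 0.0519 to 0.0708 CPM, for counting error only. Alternatives were total-count and RLE scaling, DESeq2 1.42.0, no filter, 2 groups alone, a replicate block and leaving out each library. Some genes named by these rules are not reported here.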

Additional observations from a re-analysis of the deposited data

How the results depend on the processing

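The 4 genes' log2 fold changes were recomputed in 3 comparisons under 15 alternatives each, 180 values in all. Of these, 176 kept their direction and their side of the threshold. The 176 include all values of shDHX15 against shControl, the contrast that chose the genes, and nothing is read from those. The 4 values that did not keep them concern shDHX15_MYC against shControl. GLO1, at -0.01 and not called, was at 0.25 (adjusted p = 5.85e-06) under total-count scaling and at 0.0282 both with RLE size factors in edgeR (adjusted p = 0.484) and with DESeq2 (adjusted p = 0.511); over its 15 alternatives the adjusted p ran from 5.85e-06 to 0.993. LIMA1 was at -0.0529 (adjusted p = 0.391) under total-count scaling, with adjusted p from 1.13e-07 to 0.391 over all alternatives. The median of all genes moved by 0.27 between TMM and total-count scaling in that comparison. Of 270 recomputed counts of calls over all genes, the companion lists and the neighbours, 269 stayed within 1.5 times. The exception was the number of neighbours called higher in shDHX15 against shControl, 9, which ran from 5 (without shControl replicate 1) to 10 when single libraries were left out; the cause was not tested. Leaving out single libraries moved the FHIT fold change in shDHX15_MYC against shDHX15 between -1.39 and -1.22.

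Deviations of same-numbered libraries from their group means correlated at -0.019 to 0.0636, so no strong shared deviation was seen. Libraries of different numbers were not compared, and whether same-numbered libraries were prepared together was not tested. With the replicate block, GLO1, NABP2, LIMA1 and FHIT were at 1.37, 1.38, 0.98 and -1.27 in shDHX15_MYC against shDHX15, and no call of these genes changed. FHIT rests on 215 to 265 counts in shDHX15_MYC, and its 3 libraries spread by 12.7% of their mean, the most of any of the 4 genes in any group.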
